A study of Mus musculus with 12 samples.

Results

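The 40 mitosis and spindle genes described here encode proteins that carry a cell from the end of G2 through chromosome segregation to cytokinesis, and they include Mki67, the gene of the Ki67 antigen used to mark dividing cells in tissue. They were taken by gene symbol from a count table of mouse tumors, in which each of the 40 symbols stood on 1 of 23282 lines. All 40 passed the filter on low counts, as did 13464 genes in all.

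The tumors grew from MC38, a mouse colon carcinoma line, injected beneath the flank skin of wild-type female C57BL/6 mice that were 6 weeks old at the start, and were sampled on day 19. All hosts had an intact immune system, and no group carried an engineered allele. The 4 groups held 3 tumors each. Con received saline vehicle and an IgG2a antibody. SFIH received the IgG2a antibody and 50 mg/kg daily of a hexane fraction of Inula helenium rich in sesquiterpene lactones. PD received 200 µg of anti-PD-1 antibody at each of its repeated doses, and Comb received both the fraction and anti-PD-1. RNA came from whole tumor tissue and was sequenced as 3′ tags, so a value in CPM (each gene's counts scaled to a common library total) stands for a share of transcripts and is not divided by gene length. In whole tissue, fewer dividing cells and less mitotic RNA per dividing cell cannot be told apart.

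Cells build mitotic proteins late in the cell cycle and destroy many of them as they divide, so mitotic transcripts are abundant in cycling cells and scarce in resting ones. Cyclin B with Cdk1 drives entry into mitosis, kinetochores and motors attach and align the chromosomes, the spindle checkpoint holds the anaphase-promoting complex (APC/C) until attachment is complete, and the central spindle then guides cleavage. Transcription of these genes is held back in resting cells and released in G2 in large part through a promoter element named the cell cycle genes homology region (CHR), often found near CCAAT boxes, which bind the factor NF-Y.

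The promoters of the members carried these elements more often than promoters at large. Windows from 250 bases before to 50 bases after the annotated start site (RefSeq, GRCm38.p6) were found for 33 of the 40 genes, giving 35 windows. The CHR was searched as TTTGAA and TTCGAA and the CCAAT box as CCAAT, each on both strands, so that TTCAAA and ATTGG also count as matches; no spelling of one element can lie inside the other. A CHR match was present in 28 of the 35 member windows (80.0%) and in 19.2% of all 32851 windows. A CCAAT match was present in 27 member windows (77.1%) against 37.4% of all windows, and both elements in 71.4% against 7.52%. In 42 windows of DNA replication genes, a group expressed earlier in the cycle, 14.3% held a CHR match and 59.5% a CCAAT match. A match describes the letters in the window and does not show that a factor is bound there.

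Printed here are 6 of these windows, 5′ to 3′ on the strand of the gene, with CHR and CCAAT matches on either strand in capitals. Mki67 and Top2a are shown as the proliferation marker and the most abundant member, Cdk1 as the mitotic kinase, and Kif4, Bub1b and Ckap2 because they had the extreme fold changes between groups given further on. A window also had to hold a CHR match to be printed, so a CHR match in all 6 was fixed by this choice. Mki67 lies on the minus strand at chr7:135716330-135716629, Top2a on the minus strand at chr11:99024140-99024439, Cdk1 on the minus strand at chr10:69352863-69353162, Kif4 on the plus strand at chrX:100625815-100626114, Bub1b on the plus strand at chr2:118597961-118598260, and Ckap2 on the minus strand at chr8:22185770-22186069.
Mki67: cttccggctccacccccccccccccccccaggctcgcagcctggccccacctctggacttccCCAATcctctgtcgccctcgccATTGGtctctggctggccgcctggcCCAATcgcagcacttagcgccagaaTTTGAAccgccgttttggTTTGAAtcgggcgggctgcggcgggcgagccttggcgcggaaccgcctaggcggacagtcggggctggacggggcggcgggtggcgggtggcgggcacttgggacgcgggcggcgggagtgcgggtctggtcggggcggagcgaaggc
Top2a: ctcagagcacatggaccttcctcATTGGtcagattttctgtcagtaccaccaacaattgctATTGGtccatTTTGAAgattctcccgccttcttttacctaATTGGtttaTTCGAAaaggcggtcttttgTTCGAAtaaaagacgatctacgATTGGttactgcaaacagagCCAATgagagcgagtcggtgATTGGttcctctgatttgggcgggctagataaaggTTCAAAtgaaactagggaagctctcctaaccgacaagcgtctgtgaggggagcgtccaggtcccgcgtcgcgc
Cdk1: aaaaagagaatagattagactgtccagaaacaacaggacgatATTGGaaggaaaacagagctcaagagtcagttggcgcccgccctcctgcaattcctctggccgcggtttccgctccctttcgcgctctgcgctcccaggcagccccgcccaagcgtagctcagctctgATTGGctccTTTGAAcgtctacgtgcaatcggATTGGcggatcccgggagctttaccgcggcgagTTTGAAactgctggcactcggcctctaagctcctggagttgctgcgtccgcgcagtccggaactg
Kif4: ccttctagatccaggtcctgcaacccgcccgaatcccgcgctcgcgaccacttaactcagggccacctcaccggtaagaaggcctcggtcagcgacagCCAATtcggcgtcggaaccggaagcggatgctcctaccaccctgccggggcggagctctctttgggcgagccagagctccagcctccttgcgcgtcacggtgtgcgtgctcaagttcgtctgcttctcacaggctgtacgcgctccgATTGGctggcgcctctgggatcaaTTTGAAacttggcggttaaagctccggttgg
Bub1b: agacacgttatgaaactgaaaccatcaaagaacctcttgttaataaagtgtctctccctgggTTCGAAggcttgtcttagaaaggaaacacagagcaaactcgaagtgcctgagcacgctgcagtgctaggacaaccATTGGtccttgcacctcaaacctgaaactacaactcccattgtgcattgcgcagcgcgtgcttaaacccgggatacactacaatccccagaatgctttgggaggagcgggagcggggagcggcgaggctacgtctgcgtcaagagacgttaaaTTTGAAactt
Ckap2: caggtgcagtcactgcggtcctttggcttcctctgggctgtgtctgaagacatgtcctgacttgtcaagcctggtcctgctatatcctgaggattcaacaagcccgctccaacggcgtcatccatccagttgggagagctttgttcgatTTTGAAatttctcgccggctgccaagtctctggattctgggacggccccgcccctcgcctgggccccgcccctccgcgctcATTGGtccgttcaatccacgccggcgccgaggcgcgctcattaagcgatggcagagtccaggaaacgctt

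The Top2a window held 4 CHR and 6 CCAAT matches, and the Mki67 and Cdk1 windows each held 2 CHR and 3 CCAAT matches. The Bub1b window held 2 CHR matches and 1 CCAAT match, and its second CHR began 41 bases after the start site. Kif4 had 1 CHR and 2 CCAAT matches, and Ckap2 had 1 of each. Among the other members, the Ccnb1 window held 2 CCAAT matches and no CHR match, and the Birc5 window held neither.

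**Figure D1:**
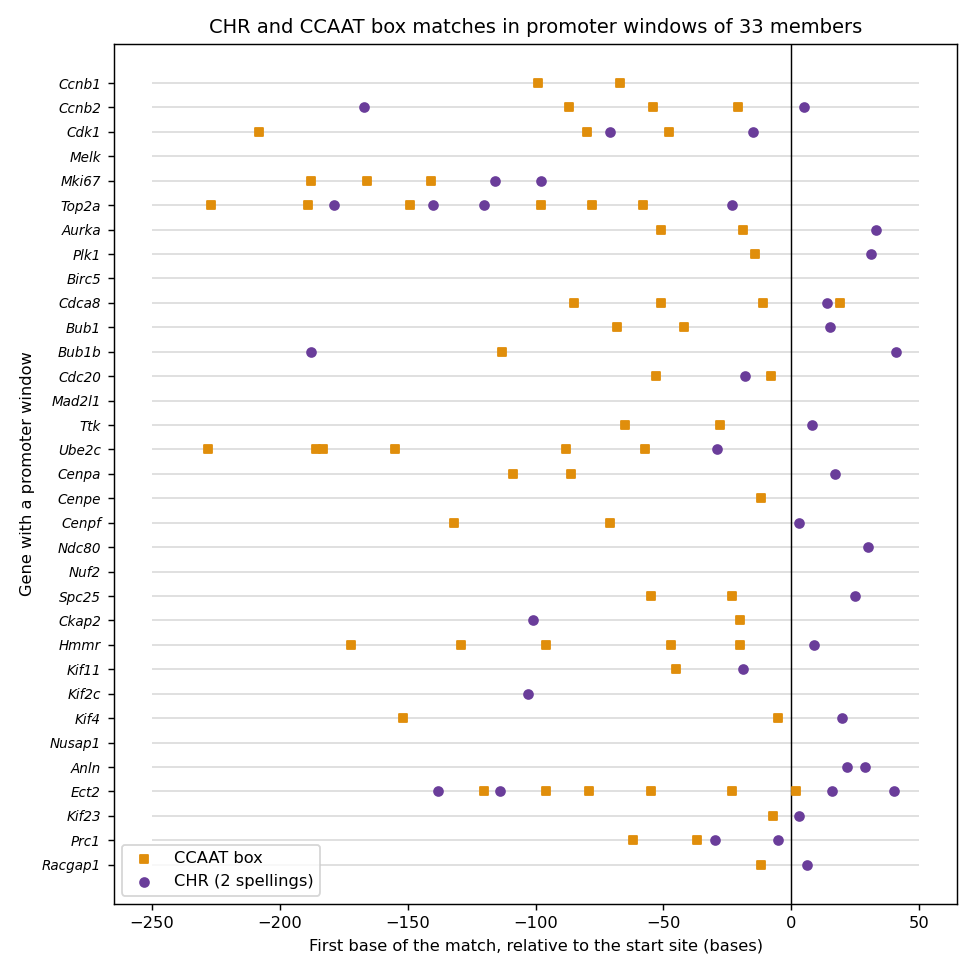
First base of each CHR match (purple circles) and CCAAT match (orange squares) on either strand, in bases from the annotated start site (vertical line), in the promoter windows of 33 members. The 2 windows of Ect2 and of Prc1 share a line each; 28 of the 35 windows hold a CHR match and 27 a CCAAT match.

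The 12 libraries held 7870741 to 12261032 counts. Comb replicate 3 stood apart from the other 11 tumors: its summed level of 14 skeletal muscle markers was 7450 CPM (11.9 to 887 CPM elsewhere) and of 10 macrophage markers 11400 CPM (587 to 3640 CPM), and all 14 and all 10 lay above every other tumor. Its 8 fibroblast markers summed to 17300 CPM against 1140 to 10400 CPM, its 7 skin markers to 378 CPM against 5.02 to 39.3 CPM, and its 8 T cell markers to 260 CPM against 24.9 to 117 CPM. Of the 8 fibroblast markers, 5 lay above every other tumor and 1 lay below every other tumor. All 7 skin markers and 6 of the 8 T cell markers lay above every other tumor. The 10 carcinoma epithelium markers were near absent elsewhere, at 4.71 to 25.5 CPM in sum with Epcam at 0.0 to 2.24 CPM, and summed to 123 CPM in Comb replicate 3. The labels call the samples tumor cells. Every result involving Comb is therefore given with and without this tumor. Nothing in the labels says more of the replicates than that they are separate samples, so p-values measure the spread between these tumors.

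Outside Comb replicate 3, the members' summed levels ran from 4670 to 7050 CPM. The 3 Con tumors had summed levels of 6520, 6630 and 6510 CPM. The SFIH sums ran from 5920 to 6950 CPM and the PD sums from 5750 to 7050 CPM, while Comb replicates 1 and 2 had 6290 and 4670 CPM. The tumor with the second lowest sum of the 11, PD replicate 2, and the lowest, Comb replicate 2, also had the highest macrophage sums of the 11, at 1920 and 3640 CPM, and the highest fibroblast sums, at 6340 and 10400 CPM. The same 2 libraries had the highest shares of counts from Rn45s, a ribosomal RNA gene, at 17.1% and 14.1%. The other tumors had 4.28 to 10.3%. A larger share of 1 gene lowers the plain CPM of all others. After TMM scaling the members' mean log2(CPM + 1) was 6.52 and 6.46 in these 2 tumors, against 6.54 to 6.84 in the rest of the 11. The parts of these other cells and of Rn45s in the members' lower sums were not tested.

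Among the 11 tumors, Top2a, which untangles DNA ahead of segregation, had the highest level of the members, 821 to 1520 CPM, and made up 21.1% of the sum of the members' medians. Mki67, which coats mitotic chromosomes, ran from 237 to 523 CPM. Of the genes of mitotic entry, Cdk1 ran from 180 to 422 CPM and its partner Ccnb1 from 104 to 150 CPM, while Cdc25c, a phosphatase that activates Cdk1, was the lowest member at 4.45 to 13 CPM. Foxm1, a transcription factor of G2 genes, ran from 27.0 to 54.6 CPM.

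The mitotic kinase Plk1 ran from 135 to 270 CPM and Aurka from 75.2 to 117 CPM. In the chromosomal passenger complex, which corrects faulty attachments, the subunit Birc5 (survivin) ran from 179 to 322 CPM and the kinase Aurkb from 14.2 to 38.8 CPM. The kinetochore motor Cenpe was the steadiest member, at 429 to 575 CPM, a ratio of highest to lowest of 1.34. The checkpoint gene Bub1b varied most, at 38.2 to 141 CPM, a ratio of 3.69. For 14 of the 40 members the ratio exceeded 2.

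Summed by role over the 11 tumors, the 7 genes of mitotic entry and its transcription (Ccna2, Ccnb1, Ccnb2, Cdk1, Cdc25c, Foxm1 and Melk) had 581 to 915 CPM, and the 4 of the chromosomal passenger complex (Aurkb, Birc5, Cdca8 and Incenp) had 373 to 634 CPM. The 6 checkpoint and APC/C genes (Bub1, Bub1b, Cdc20, Ttk, Ube2c and Mad2l1) had 565 to 876 CPM. The 6 centromere and kinetochore genes (Cenpa, Cenpe, Cenpf, Ndc80, Nuf2 and Spc25) had 828 to 1080 CPM. Motors and microtubule proteins (Kif11, Kif2c, Kif4, Tpx2, Nusap1, Hmmr and Ckap2) had 528 to 830 CPM, and the 6 genes of the central spindle and cytokinesis (Kif20a, Kif23, Anln, Ect2, Prc1 and Racgap1) had 469 to 744 CPM. In each of these role sums Comb replicate 2 or PD replicate 2 was the lowest of the 11 tumors.

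**Figure D2:**
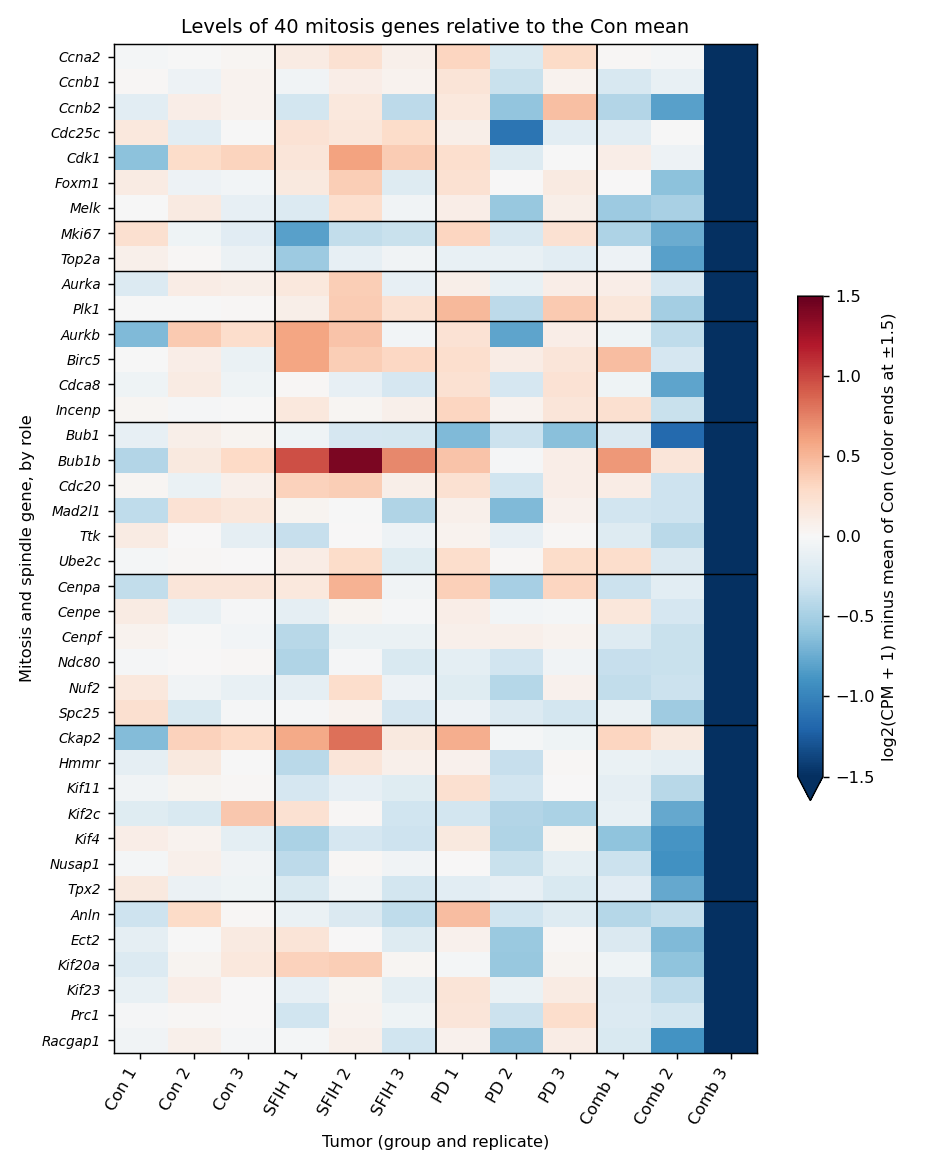
Level of each of the 40 genes (rows, grouped by role) in each of the 12 tumors (columns, by group), as log2(CPM + 1) minus the mean of the 3 Con tumors; colors end at ±1.5. Comb replicate 3 is past the lower end for all 40, and Bub1b in SFIH replicates 1 and 2 is the strongest red.

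In Comb replicate 3 the whole set was low. The members summed to 345 CPM, which is 0.0345% of its counts (95% Wilson interval 0.0334 to 0.0356%, counting error only), against 0.467 to 0.705% in the other 11 tumors. All 40 lay below all 11 other tumors, beside 47.2% of all genes tested. The median difference on the log2(CPM + 1) scale between Comb replicate 3 and the 11 others was -3.96 for the members, -2.99 for 68 other mitosis genes, -2.86 for 46 DNA replication genes, -1.52 for 19 G1 cyclins and CDK inhibitors, and -0.50 for all genes tested.

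The size of this difference varied widely from member to member. Taken as the median CPM of the other 11 tumors over the CPM of Comb replicate 3, it was 27.8-fold for Top2a (95% counting interval 25.5 to 30.3), 20.1-fold for Mki67 (17.4 to 23.2) and 12.2-fold for Cdk1. It was smallest for Cenpa, the histone variant that marks centromeres, at 4.17-fold (3.61 to 4.84), followed by the cyclin Ccna2 at 5.19-fold, Aurkb at 5.33-fold, the checkpoint protein Mad2l1 at 5.37-fold and the depolymerizing kinesin Kif2c at 5.67-fold. It was 61.2-fold for Cenpe (49.9 to 76.1), 46-fold for Racgap1 and 43.5-fold for Prc1, both of the central spindle.

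Of the lowest counts, Cdc25c had 1 count in Comb replicate 3, a ratio of 116 with a counting interval of 20.8 to 4590. Bub1 and Foxm1 had 0 counts. With a floor of 3 counts in that library, the ratio of the median of the other 11 tumors was 210 for Bub1 and 155 for Foxm1. The lower ends of their 95% counting intervals were 171 and 126. The intervals of Cenpa and of Cenpe do not meet, so within this library the ratios of these members differed by more than counting error. Marker sums of muscle, macrophages, fibroblasts and skin moved with this result, as given above, and their part in it was not tested.

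**Figure D3:**
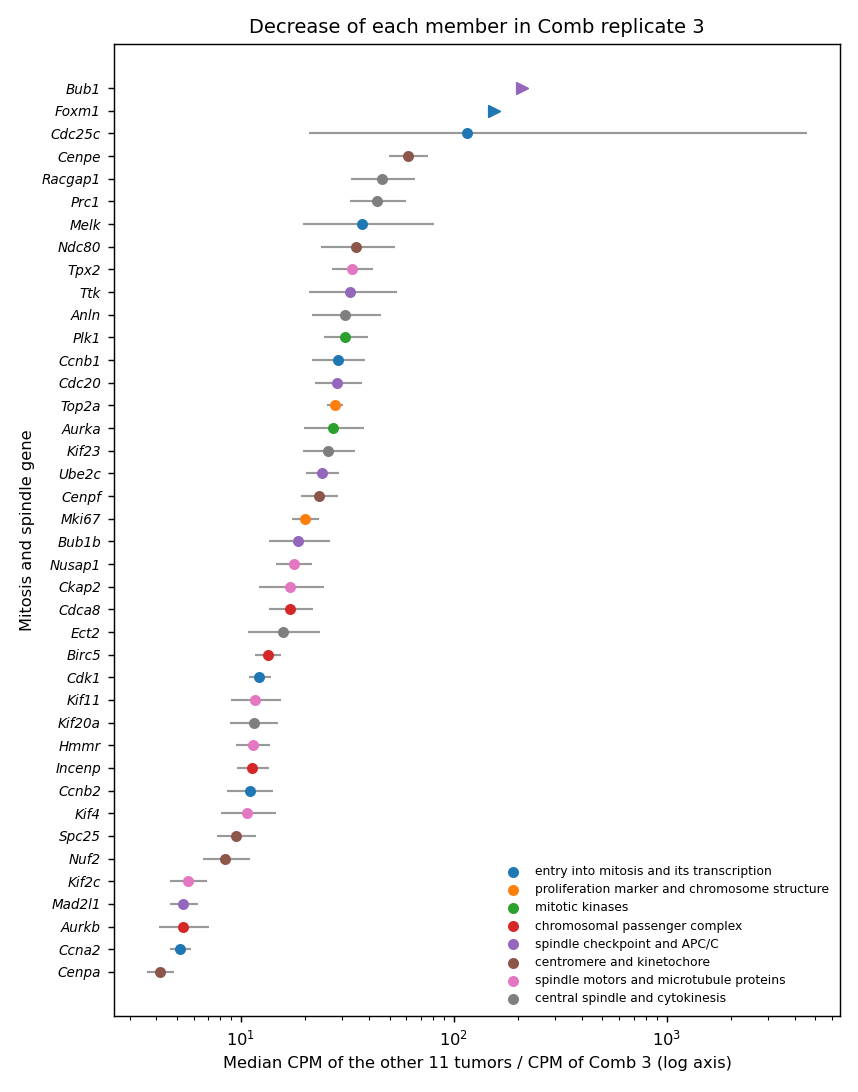
Median CPM of the other 11 tumors divided by the CPM of Comb replicate 3 for each member, on a log axis, colored by role. Lines are 95% counting intervals, and arrowheads are ratios at a floor of 3 counts for the 2 members with 0 counts. The ratios run from 4.17 for Cenpa to 210 for Bub1 at that floor.

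SFIH alone was set against Con to show what the plant fraction did without anti-PD-1. None of the 40 members had an adjusted p under 0.05 by edgeR (0.0% of all genes tested were called), none had an unadjusted p under 0.05 (2.25% of all genes), and DESeq2 called none (0.0297% of all genes). The median log2 fold change of the members was -0.03 (all genes 0.02), with 17 positive and 23 negative. The fit shares 1 estimate of spread over 12 tumors, and without Comb replicate 3, which is in neither group, 4 members had an unadjusted p under 0.05 (7.49% of all genes), Bub1b and Birc5 higher and Mki67 and Kif4 lower, while edgeR still called none.

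Bub1b, which encodes the checkpoint protein BubR1, had the highest fold change of the members. Its level was 38.2, 57.7 and 64.4 CPM in Con and 103, 141 and 86.5 CPM in SFIH. All 3 SFIH tumors lay above all 3 Con tumors, and above the 6 PD and Comb tumors too. The log2 fold change was 1.03 (SE 0.67, adjusted p = 1.0, edgeR). Without Comb replicate 3 it was 1.03 (SE 0.20, unadjusted p = 0.000321, adjusted p = 0.423, edgeR), and DESeq2 on those 11 tumors gave an adjusted p of 0.00344, the only call among the members in any comparison, where 0.477% of all genes were called. DESeq2 on 12 tumors gave an adjusted p of 1.0.

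Mki67 had the lowest fold change. Its level was 496, 400 and 371 CPM in Con (mean 423 ± 65.2, SD, n = 3) and 237, 325 and 332 CPM in SFIH (298 ± 53.1). The groups did not overlap on this scale but did after TMM scaling. The log2 fold change was -0.50 (SE 0.63, adjusted p = 1.0, edgeR), and without Comb replicate 3 it was -0.50 (SE 0.19, adjusted p = 0.559, edgeR). Kif4, a chromosome-bound kinesin, was 57.7, 55.9 and 48.8 CPM in Con and 38.5, 45.0 and 43.2 CPM in SFIH, also without overlap on this scale alone (log2 fold change -0.36, SE 0.48, adjusted p = 1.0, edgeR).

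Birc5 was 213, 228 and 199 CPM in Con and 322, 275 and 265 CPM in SFIH. The groups did not overlap on either scale (log2 fold change 0.42, SE 0.58, adjusted p = 1.0, edgeR; without Comb replicate 3 SE 0.14, adjusted p = 0.522). Ckap2, a spindle microtubule protein, was 26.9, 54.3 and 52.9 CPM in Con and 63.9, 76.6 and 47.2 CPM in SFIH, and the groups overlapped (log2 fold change 0.47, SE 0.65, adjusted p = 1.0, edgeR). In all, 7 members lay above Con without overlap (7.55% of all genes did) and 4 below (8.85%). After TMM scaling these were 5 (8.55%) and 3 (8.86%), and the 3 below were Bub1, Kif11 and Ndc80. With 3 tumors against 3, an exact permutation test cannot go below p = 0.1.

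PD was set against the same Con tumors to show anti-PD-1 alone. No member was called by edgeR (0.0% of all genes) or DESeq2 (0.0446%, and 0.499% without Comb replicate 3), and none had an unadjusted p under 0.05 by edgeR (3.99% of all genes). The median log2 fold change was 0.09 (all genes 0.01), with 25 members positive and 15 negative. Without Comb replicate 3, which is in neither group, 3 members had an unadjusted p under 0.05 (10.7% of all genes): Ube2c, the ubiquitin-conjugating enzyme of the APC/C, and Incenp were higher, and Bub1 was lower.

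Bub1, the checkpoint kinase at kinetochores, was 62.8, 72.9 and 70.3 CPM in Con and 43.1, 54.8 and 43.9 CPM in PD. All 3 PD tumors lay below all 3 Con tumors on either scale. The log2 fold change was -0.43 (SE 0.96, adjusted p = 1.0, edgeR), and without Comb replicate 3 it was -0.43 (SE 0.20, adjusted p = 0.464, edgeR). Kif2c was 54.1, 52.6 and 82.0 CPM in Con and 50.7, 45.0 and 44.1 CPM in PD, again without overlap (log2 fold change -0.32, SE 0.41, adjusted p = 1.0, edgeR).

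The scaffold gene Incenp was 138, 134 and 135 CPM in Con and 170, 141 and 154 CPM in PD. The groups did not overlap (log2 fold change 0.29, SE 0.54, adjusted p = 1.0, edgeR). Plk1 was 192, 192 and 195 CPM in Con and 270, 147 and 254 CPM in PD, so that PD replicate 2 lay below Con and the other two above (log2 fold change 0.30, SE 0.71, adjusted p = 1.0, edgeR). In all, 4 members lay above Con without overlap (5.76% of all genes) and 5 below (14.8%); after TMM scaling these were 4 (9.42%) and 2 (9.36%).

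**Figure D4:**
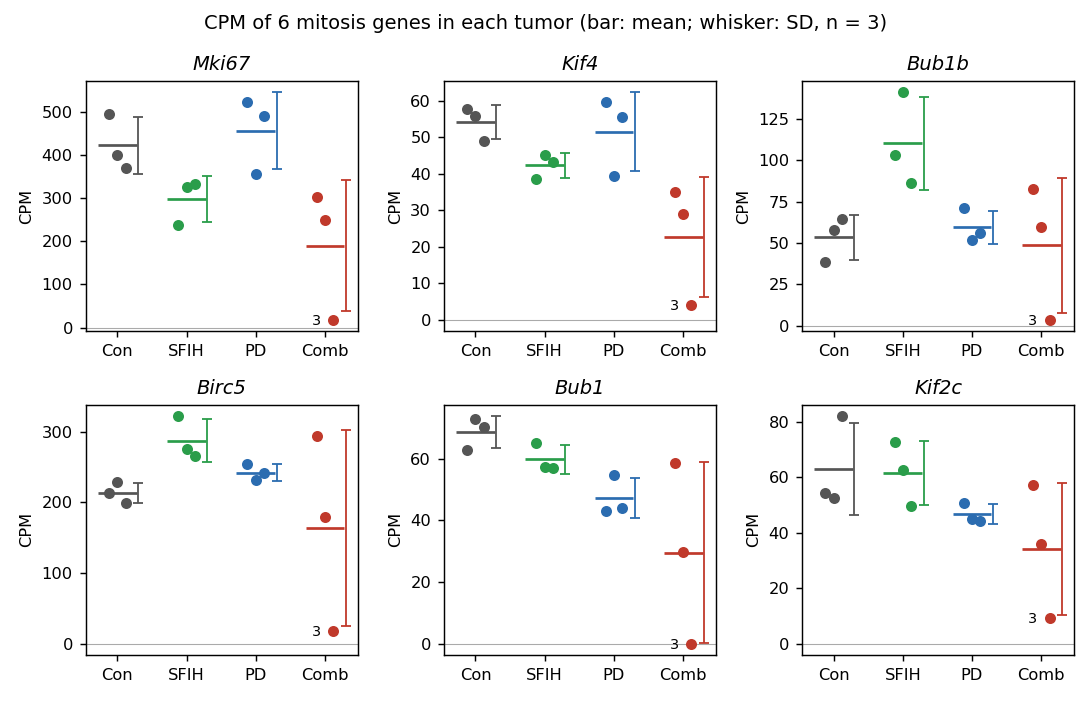
CPM of Mki67, Kif4, Bub1b, Birc5, Bub1 and Kif2c in each of the 12 tumors, by group; horizontal bars are means and whiskers SD (n = 3), and the point marked 3 is Comb replicate 3. Bub1b is highest in the 3 SFIH tumors, 86.5 to 141 CPM, and Comb replicate 3 is the lowest tumor in each panel.

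Comb was set against Con to show both agents together. With all 12 tumors, 39 of the 40 members had a negative log2 fold change, with a median of -0.64 (all genes -0.03), and no member was called by edgeR (0.0% of all genes) or DESeq2, which called 14.8% of all genes. Without Comb replicate 3 the median was -0.14 (all genes -0.01), 27 members were negative, and no member was called by edgeR (0.0367% of all genes) or DESeq2 (5.43%). Kif4 alone had an unadjusted p under 0.05 with all tumors by edgeR (25.3% of all genes), and without Comb replicate 3 there were 4 (18.8%): Kif4, Nusap1 and Bub1 lower and Bub1b higher.

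Kif4 was 35.1, 28.9 and 4.19 CPM in the 3 Comb tumors, against 48.8 to 57.7 CPM in Con. All 3 lay below all of Con on either scale. On plain totals Comb replicates 1 and 2 also lay below the 9 tumors of the other groups, but after TMM scaling they overlapped the SFIH tumors. The log2 fold change was -1.07 (SE 0.48, adjusted p = 0.193, edgeR), and without Comb replicate 3 it was -0.60 (SE 0.18, adjusted p = 0.133, edgeR). Bub1 was 58.8, 29.9 and 0 CPM in Comb, below Con in all 3 tumors (log2 fold change -1.08, SE 0.97, adjusted p = 0.483, edgeR; without Comb replicate 3 -0.49, adjusted p = 0.259).

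Mki67 was 303, 249 and 17.8 CPM in Comb. All 3 tumors lay below the 3 Con tumors (log2 fold change -0.99, SE 0.63, adjusted p = 0.335, edgeR; without Comb replicate 3 -0.46, adjusted p = 0.274). Top2a was 1370, 821 and 48.4 CPM in Comb and 1520, 1460 and 1360 CPM in Con. Comb replicate 1 lay within the Con range (log2 fold change -0.81, SE 0.70, adjusted p = 0.462, edgeR; without Comb replicate 3 -0.26). Bub1b was the only member with a positive fold change, at 82.6, 59.5 and 3.46 CPM in Comb (log2 fold change 0.03, SE 0.67, adjusted p = 0.981, edgeR; without Comb replicate 3 0.57, adjusted p = 0.208).

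Of the genes of mitotic entry, Cdk1 was 296, 262 and 25.8 CPM in Comb and 180, 335 and 350 CPM in Con, and Ccnb1 was 111, 122 and 4.64 CPM against 133, 125 and 137 CPM. Their log2 fold changes were -0.38 and -0.55 with all tumors (adjusted p = 0.672 and 0.608, edgeR) and 0.12 and -0.00 without Comb replicate 3. Foxm1 was 42.2, 27.0 and 0 CPM in Comb and 45.7, 39.8 and 40.6 CPM in Con (log2 fold change -0.72, SE 0.94, adjusted p = 0.623, edgeR; without Comb replicate 3 -0.14). Birc5 was 294, 179 and 18 CPM in Comb, with replicate 1 above all of Con and replicate 2 below (log2 fold change -0.22, adjusted p = 0.815, edgeR; without Comb replicate 3 0.29).

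In all, 18 members lay below Con in all 3 Comb tumors (22.2% of all genes). Comb replicate 3 was the lowest tumor for all 40 members, so this count rests on Comb replicates 1 and 2, in which 26.2% of all genes lay below Con, and no member lay above Con in these 2 tumors (10.4% of all genes). The 18 include Anln, Ect2, Kif23, Prc1 and Racgap1 of the central spindle and cytokinesis, of which Ect2, Kif23 and Racgap1 also lay below after TMM scaling. On that scale 11 members lay below Con (13% of all genes, and 16.7% in Comb replicates 1 and 2), and Bub1b, Ccna2 and Ckap2 lay above it in Comb replicates 1 and 2 (16.2% of all genes).

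Comb was also set against each single agent. Against PD all 40 members had a negative log2 fold change, with a median of -0.65 (all genes -0.00), and against SFIH likewise all 40, with a median of -0.64 (all genes -0.05). Without Comb replicate 3 the medians were -0.14 and -0.12, and 32 and 28 members were negative. No member was called in either comparison by edgeR (0.0% of all genes in both), with or without that tumor. DESeq2 called no member either, beside 3.1% of all genes against PD and 8.59% against SFIH with all tumors, and 0.22% and 0.69% without Comb replicate 3. These comparisons share the Comb tumors and are not independent.

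Against PD, 1 member had an unadjusted p under 0.05 by edgeR (18% of all genes), Kif4, and without Comb replicate 3 there were 5 (9.02%), all lower in Comb: Mki67, Ccnb2, Kif23, Kif4 and Cdca8. Mki67 was 523, 356 and 491 CPM in PD, above all 3 Comb tumors. Its log2 fold change was -1.19 (SE 0.64, adjusted p = 0.327, edgeR), and -0.66 (SE 0.22, adjusted p = 0.532) without Comb replicate 3. Ccnb2, a second B-type cyclin, was 54.1, 41.5 and 6.01 CPM in Comb and 82.7, 48.4 and 101 CPM in PD, and PD replicate 2 lay within the Comb range (log2 fold change -1.09, SE 0.51, adjusted p = 0.283, edgeR; -0.62 without Comb replicate 3). In all, 8 members lay below PD without overlap (8.42% of all genes, and 10.2% in Comb replicates 1 and 2), and in Comb replicates 1 and 2 none lay above it (6.77%).

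Against SFIH, no member had an unadjusted p under 0.05 by edgeR (19.0% of all genes), and without Comb replicate 3 there was 1 (10.8%), Kif20a, a kinesin of cytokinesis. Bub1b, at 82.6, 59.5 and 3.46 CPM in Comb, lay below the 86.5 to 141 CPM of SFIH in all 3 tumors. Its log2 fold change was -1.0 (SE 0.67, adjusted p = 0.424, edgeR), and -0.46 (SE 0.23, adjusted p = 0.500) without Comb replicate 3. The kinase gene Melk was 21.4, 22.3 and 0.82 CPM in Comb and 27.3, 37.9 and 30.4 CPM in SFIH. The groups did not overlap on this scale but did after TMM scaling. The log2 fold change of Melk was -0.92 (SE 0.68, adjusted p = 0.463, edgeR), and -0.37 without Comb replicate 3. In all, 14 members lay below SFIH without overlap (14.9% of all genes, and 18.8% in Comb replicates 1 and 2), and in Comb replicates 1 and 2 none lay above it (6.16%). After TMM scaling 6 lay below (8.56%, and 12.0% in Comb replicates 1 and 2): 5 of the 14, and Cdc20.

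The interaction term asks whether the effect of anti-PD-1 differed with and without SFIH. All 40 members had a negative interaction, with a median of -0.70 on the log2 scale (all genes -0.03), and without Comb replicate 3 the median was -0.19 with 32 negative. No member was called by edgeR (0.0% of all genes) or DESeq2 (0.00743%), and none had an unadjusted p under 0.05 by edgeR (2.55% of all genes). Bub1b had the lowest value, -1.26 (SE 0.95, adjusted p = 0.894, edgeR), and -0.72 (SE 0.31, unadjusted p = 0.0372, adjusted p = 1.0) without Comb replicate 3, where it was the 1 member with an unadjusted p under 0.05 (1.55% of all genes). Plk1 followed at -1.07 (SE 1.01, adjusted p = 0.894, edgeR), and -0.52 without Comb replicate 3.

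**Figure D5:**
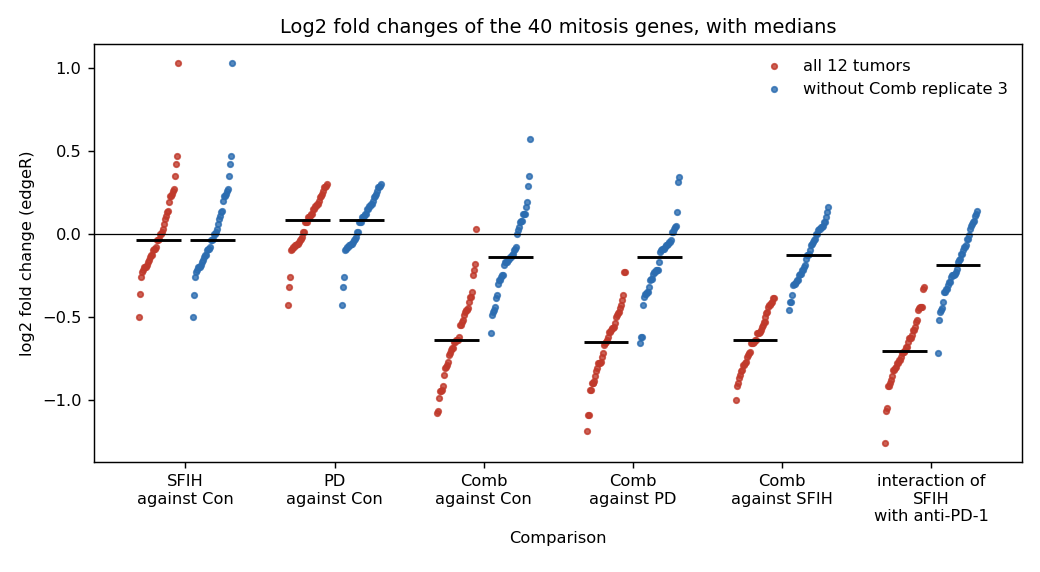
Log2 fold changes (edgeR) of the 40 members in each comparison, sorted within each, with all 12 tumors (red) and without Comb replicate 3 (blue); black bars are medians. The median of Comb against Con is -0.64 with all tumors and -0.14 without that tumor, and Bub1b is the separate high point of SFIH against Con.

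Other parts of the cell cycle were read from lists beside the members. No gene of the 68 other mitosis genes, 46 DNA replication genes and 19 G1 cyclins and CDK inhibitors was called by edgeR in any comparison with all 12 tumors. Besides the CDK inhibitors described next, DESeq2 called Rpa3, a subunit of the single-strand DNA binding complex, in Comb against SFIH (log2 fold change -1.73, adjusted p = 0.0282). Without Comb replicate 3 it did not call Rpa3, and in Comb against Con it called the centriole kinase gene Plk4 (-0.74, adjusted p = 0.0334) and the cyclin gene Ccne2 (0.52, adjusted p = 0.0199). For Comb against Con the medians were -0.67, -0.51 and -0.27, and without Comb replicate 3 they were -0.21, -0.05 and -0.10. For SFIH against Con they were -0.10, 0.07 and 0.01, and for PD against Con 0.06, 0.01 and -0.00.

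The G1 list held genes that went the other way in Comb. Cdkn1c, which encodes the CDK inhibitor p57, had 5, 14 and 10 counts in Con and 39, 327 and 748 counts in Comb. It was highest in Comb replicate 3 and next highest in Comb replicate 2. SFIH had 27, 6 and 36 counts and PD had 13, 47 and 44, so Comb replicate 1 lay within the PD range. Against Con the log2 fold change of Cdkn1c was 5.58 (SE 1.15, adjusted p = 0.0665, edgeR), and 4.50 without Comb replicate 3 (adjusted p = 0.0896). DESeq2 gave adjusted p-values of 2.84e-06 and 0.000283. DESeq2 also called Cdkn1c against SFIH (adjusted p = 0.000365, and 0.0367 without Comb replicate 3). Against PD it called Cdkn1c with all tumors (adjusted p = 0.0232) and not without Comb replicate 3. Cdkn2a, of the p16 and p19Arf locus, had 18, 29 and 20 counts in Con and 15, 55 and 176 in Comb (log2 fold change 2.20, adjusted p = 0.113, edgeR; 0.89 and adjusted p = 0.460 without Comb replicate 3). DESeq2 called Cdkn2a with all tumors, against Con (adjusted p = 0.0281) and against SFIH (adjusted p = 0.0435), and not without Comb replicate 3. The macrophage and fibroblast sums given above were also high in Comb replicates 2 and 3.

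The members' levels did not all move together across tumors. Over the 11 tumors without Comb replicate 3, the 780 pairs of members had Pearson correlations of log2(CPM + 1) between -0.52 and 0.93, with a median of 0.47, and 61 were negative. With Comb replicate 3 added the range was 0.76 to 1.0 and the median 0.97, so these values depended on a single library. These correlations share library totals and groups and are given as a description. Racgap1 followed the mean of the other members most closely (r = 0.95 over 11 tumors) and was closest to Ect2, its partner in cytokinesis (0.93). Cenpf (0.29), Bub1b (0.35) and Ckap2 (0.39) followed it least. Bub1b was closest to Ckap2 (0.86), Ckap2 to Cdk1 (0.88), and Mki67 to Cenpf (0.91), while the lowest pair was Mki67 with Bub1b (-0.52).

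Ratios of members within a tumor do not depend on the scaling between libraries. Of 5 pairs computed, the 2 given here were chosen after the values were seen and get no test. The other three (Top2a over Mki67, Ccnb1 over Ccnb2 and Aurka over Aurkb) overlapped between tumors that did and did not receive SFIH, as did Bub1b over Bub1. For Birc5 over Mki67 the Con tumors gave 0.429, 0.568 and 0.536 and the PD tumors 0.486, 0.647 and 0.491. The SFIH tumors gave 1.36, 0.844 and 0.798 and the Comb tumors 0.972, 0.720 and 1.02. The ratio of Birc5 to Mki67 was higher in every tumor that received SFIH than in every tumor that did not, Comb replicate 3 included. For SFIH against Con this was fixed in advance, since Birc5 lay above Con and Mki67 below it without overlap in CPM. How many of the 780 pairs of members split the tumors in this way was not counted, so the split is a description of a chosen pair. For Bub1b over Bub1 the Con tumors gave 0.609 to 0.916 and the SFIH tumors 1.52 to 2.45. The PD tumors gave 0.944 to 1.64, and Comb replicates 1 and 2 gave 1.40 and 1.99, while Comb replicate 3, with 0 counts of Bub1, has no ratio.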

How the data were processed

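Per the labels, 3′ tag libraries (QuantSeq, single-end reads on a NextSeq 500) were made from tumor RNA. The authors deposited a table of counts per gene symbol, whole numbers and not normalized. The aligner, counter, genome build and annotation are not given in the sources used here. Library totals of 7870741 to 12261032 counts set the precision, and counting intervals cover counting error only. Groups were taken from the labels, and the 12 columns were matched to tumors by their labels.

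Genes were filtered (filterByExpr, 13464 of 23282 lines tested; 13621 without Comb replicate 3), scaled by TMM and compared with the quasi-likelihood test of edgeR 4.0.16 in 1 fit of all 12 tumors, two-sided, with Benjamini-Hochberg adjustment over all genes tested and a threshold of 0.05. DESeq2 1.42.0 was an alternative. For tumor sequencing the study's methods name DESeq2 and do not describe the model that compared the groups. Levels are CPM on plain totals, and log2(CPM + 1) where said. Members and lists were chosen with earlier results of these data known. Values in full were given for Mki67, Top2a, Cdk1, Ccnb1, Birc5 and Foxm1 and, in each comparison, for the 2 members with the largest change in each direction among those with a mean of at least 50 counts. The fits were tested on simulated counts, in which no tumor was made to stand apart as Comb replicate 3 did. Fits without Comb replicate 3 for SFIH and PD against Con, and DESeq2, replicate block and plain-total fits without it, were chosen after seeing the data. Promoter windows came from RefSeq (GRCm38.p6). They were not found for 7 members, which are not analysed here in that respect.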

Additional observations from a re-analysis of the deposited data

How the results depend on the processing

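The number of members called was 0 in all 6 comparisons under DESeq2, plain totals, no filter, the replicate block, leaving out muscle genes with Rn45s and mt- genes, and without Comb replicate 3 by edgeR. It was also 0 in the 5 comparisons of 2 groups fitted on those groups alone, and in each comparison when a tumor of the groups it uses was left out. The exception was 1 member (Bub1b) for SFIH against Con by DESeq2 without Comb replicate 3. With TMM library sizes, members below without overlap numbered 2 for PD against Con (5 on plain totals), 11 for Comb against Con (18) and 6 for Comb against SFIH (14). On plain totals the median of all genes was -0.29 for Comb against Con, -0.31 for Comb against SFIH and -0.16 for Comb against PD, and that of the members -0.82, -0.81 and -0.73. The replicate numbers did not pair the tumors (18 pairs of equal number, correlations -0.235 to 0.361, 6 over 0.1; 2 of 12 tumors closest to their own number), and with the replicate block the medians were -0.80 (Comb against Con), -0.86 (Comb against PD) and -0.83 (Comb against SFIH). Among named genes, Bub1b in Comb against Con was -0.14 on plain totals, -0.22 with the replicate block and, with single tumors left out, -0.46 to 0.57, negative when Con replicate 1, Comb replicate 1 or Comb replicate 2 was left out (-0.15, -0.46 and -0.22). Without Comb replicate 3, by edgeR, DESeq2 and the replicate block in turn, Cdk1 was 0.12, 0.14 and 0.19 against Con and 0.05, 0.07 and 0.08 against PD, and Birc5 was 0.29, 0.31 and 0.24 against Con (0.15 on plain totals). Birc5 against PD was 0.01 and 0.03 by edgeR and DESeq2, and Ccnb1 against Con was 0.02 by DESeq2 and by the replicate block. Over single tumors left out, Cdk1 ran from -0.74 to 0.12 against Con and from -0.81 to 0.05 against PD, Birc5 from -0.81 to 0.29 and from -1.08 to 0.01, and Ccnb1 against Con from -1.11 to -0.00. The cause of these changes was not tested. The dispersion was 0.158 with and 0.0682 without Comb replicate 3, and 3 tumors a group limit the precision.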
